A study of Mus musculus with 6 samples.

Results

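The 9 genes of glucocorticoid activation and response described here are the enzymes Hsd11b1, Hsd11b2 and H6pd, the receptors Nr3c1 and Nr3c2, and the response genes Fkbp5, Tsc22d3, Sgk1 and Zbtb16. They are 9 of the 55471 genes in the deposited table. The list was chosen by the measured difference of Hsd11b1 between the groups of these libraries, so the values of Hsd11b1 are a description without a test. The other 8 were added for their function, but with earlier results of these data known. The study compared 3 libraries labelled Ranbp2 KO, from cells edited with CRISPR/Cas9, with 3 WT libraries. All 6 were made from polyA RNA of 10T1/2 cells, a mouse line of embryonic fibroblasts grown in medium with serum and given no treatment per the labels. The replicates are described as biological, but not how many edited clones the KO-labelled libraries come from or how the cultures were kept apart, so the p-values cover only variation among these 6 libraries, which may be technical.

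Cortisol and corticosterone circulate together with inert keto forms. Hsd11b1 encodes a reductase of the endoplasmic reticulum that turns the inert form back into active hormone inside the cell, and H6pd encodes the enzyme that supplies its NADPH in the same compartment. Hsd11b2 encodes the opposing dehydrogenase, best known from the kidney. Active hormone binds the glucocorticoid receptor (Nr3c1) and the mineralocorticoid receptor (Nr3c2), which move into the nucleus and act on target genes such as Fkbp5, Tsc22d3, Sgk1 and Zbtb16.

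Library totals lay between 32072817 and 46321967 expected counts, and the filter on low counts kept 15454 genes. Ranbp2 itself, the targeted gene, was not lower in the KO-labelled libraries, at 293.82, 288.73 and 292.66 CPM (the count relative to the scaled total of its library), against 219.63, 249.96 and 248.84 CPM in WT libraries. Its log2 difference was 0.28 (SE 0.07, adjusted p = 0.012 by edgeR). The exact two-sided permutation p was 0.1, the smallest that 3 against 3 libraries allow. Counts summed over a whole gene say nothing of single exons, and the RNA level alone does not show whether the gene was disrupted. Because Ranbp2 was not lower, the libraries are called KO-labelled throughout. Of the fibroblast markers Col1a1, Col1a2, Col3a1, Vim, Pdgfra, Pdgfrb, Fn1, Lum, Dcn and Thy1, 5 rose and 3 fell. These are 50% and 30% of the 10 listed, against 17.6% called higher and 21.3% lower among all genes tested. Fn1 had the highest level, at 14511 ± 2736 CPM in KO-labelled and 5860.1 ± 269 CPM in WT libraries (SD, n = 3 each). Thy1, another surface marker of fibroblasts, was at 0.533 CPM on average in KO-labelled and 58.3 CPM in WT libraries, and Lum was below 1 CPM in all 6 libraries. Cd68, the leukocyte marker with the highest level, averaged 1.54 CPM in KO-labelled and 1.59 CPM in WT libraries, and did not pass the test. Lyz2, another leukocyte marker, rose to 0.780 ± 0.0705 CPM in KO-labelled libraries, against 0.291 ± 0.0490 CPM in WT libraries, and Csf1r, at 0.563 ± 0.103 CPM in KO-labelled and 0.358 ± 0.0841 CPM in WT libraries, did not pass.

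Of the 9 genes, 7 passed the filter, and Hsd11b2 and Zbtb16 did not. Leaving aside Hsd11b1, which chose the list, 2 were called higher (Nr3c1 and Fkbp5) and 2 lower (Tsc22d3 and Sgk1) at an adjusted p below 0.05. H6pd and Nr3c2 did not pass. Among all genes tested 38.9% were called, 17.6% higher and 21.3% lower, and since the contrast chose the list nothing is read from the members' share. In all 7 tested genes the KO-labelled values lay outside the WT range, which held for 51.4% of all genes tested (24.6% above and 26.8% below). The median log2 difference of the tested members other than Hsd11b1 was 0.02, against 0.01 for all genes tested. These are bulk libraries, in which fewer cells of a type and less RNA per cell cannot be told apart.

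**Figure D1:**
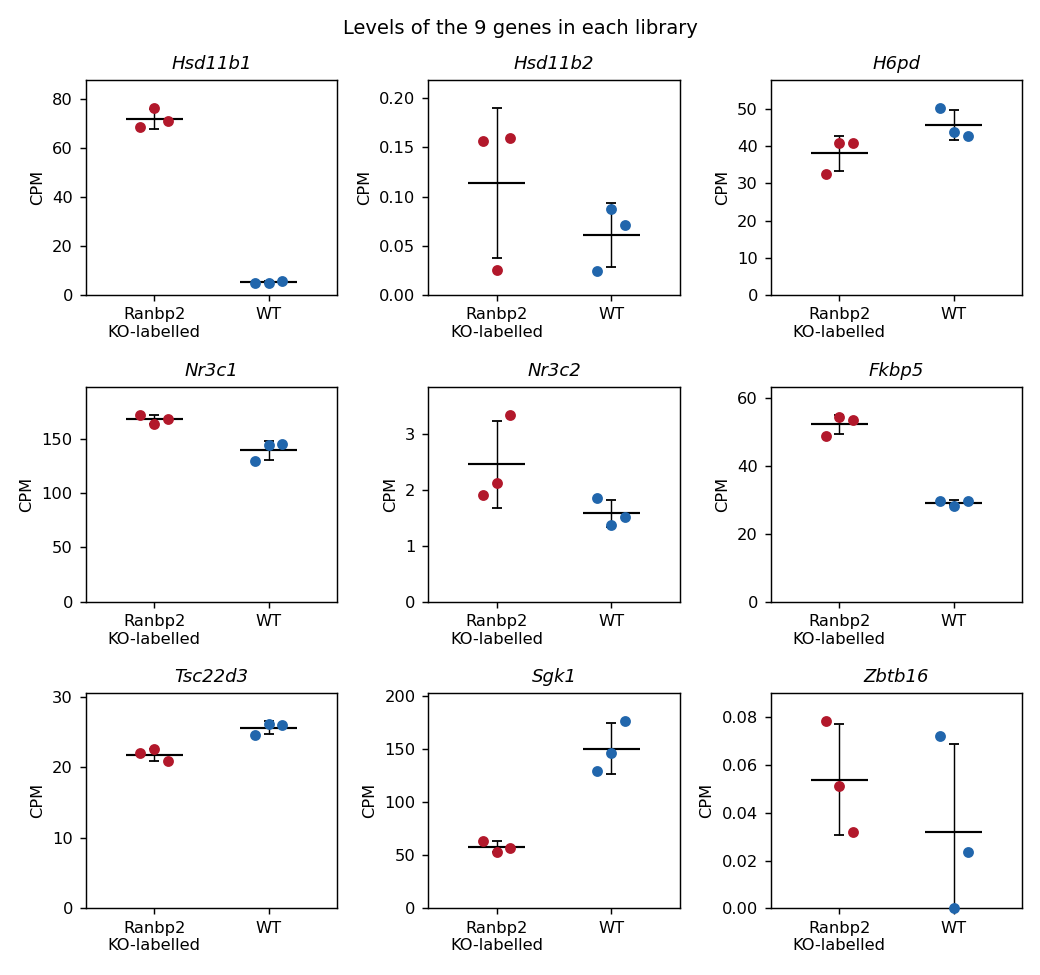
CPM (linear axes from 0) of each of the 9 genes in the 3 KO-labelled libraries (red, left) and the 3 WT libraries (blue, right), with the mean as a horizontal line and 1 SD as bars. Hsd11b1 sits at 68.3 to 76.3 CPM in KO-labelled libraries and at 4.72 to 5.46 CPM in WT libraries, while Sgk1 shows the opposite order and Hsd11b2 and Zbtb16 stay below 0.2 CPM.

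Hsd11b1, the glucocorticoid-regenerating reductase, stood at 68.3, 76.3 and 70.9 CPM in KO-labelled libraries, against 4.96, 4.72 and 5.46 CPM in WT libraries. Every KO-labelled value was above every WT value by more than 10 times, and the replicates of each group lay close together, with a coefficient of variation of 5.65% in KO-labelled and 7.52% in WT libraries. The mean was 71.8 ± 4.06 CPM in KO-labelled and 5.05 ± 0.380 CPM in WT libraries (SD, n = 3 each), a ratio of 14.2 and a log2 difference of 3.83 (SE 0.09). These means rest on 7810 counts in the KO-labelled and 653 counts in the WT libraries, so the gene was well measured in both groups. Its log2 difference ranked 42nd from the top among the 15454 genes tested. Across the 12 alternative ways of processing it ran from 3.78 to 3.89.

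Hsd11b1 (ENSMUSG00000016194) lies on the minus strand of chromosome 1, at 193221634 to 193264075 of GRCm38. The 966 other genes tested on chromosome 1 had a median log2 difference of 0.29, and the 8 other genes within 1 Mb of Hsd11b1 had a median of 0.52, with 3 called higher and none lower. Set against the chromosome's median, the log2 difference of Hsd11b1 was still 3.54. Lamb3, the gene of a laminin chain, lies on the opposite strand with its span crossing that of Hsd11b1, and stood at 11.3 ± 0.959 CPM in KO-labelled and 3.92 ± 0.430 CPM in WT libraries. The 2 genes share 0 exon bases in the annotation. Gm38118, an unverified transcript inside the Hsd11b1 span on the same strand, had 49 counts in the KO-labelled and 4 counts in the WT libraries, under 1% of the counts of Hsd11b1.

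**Figure D2:**
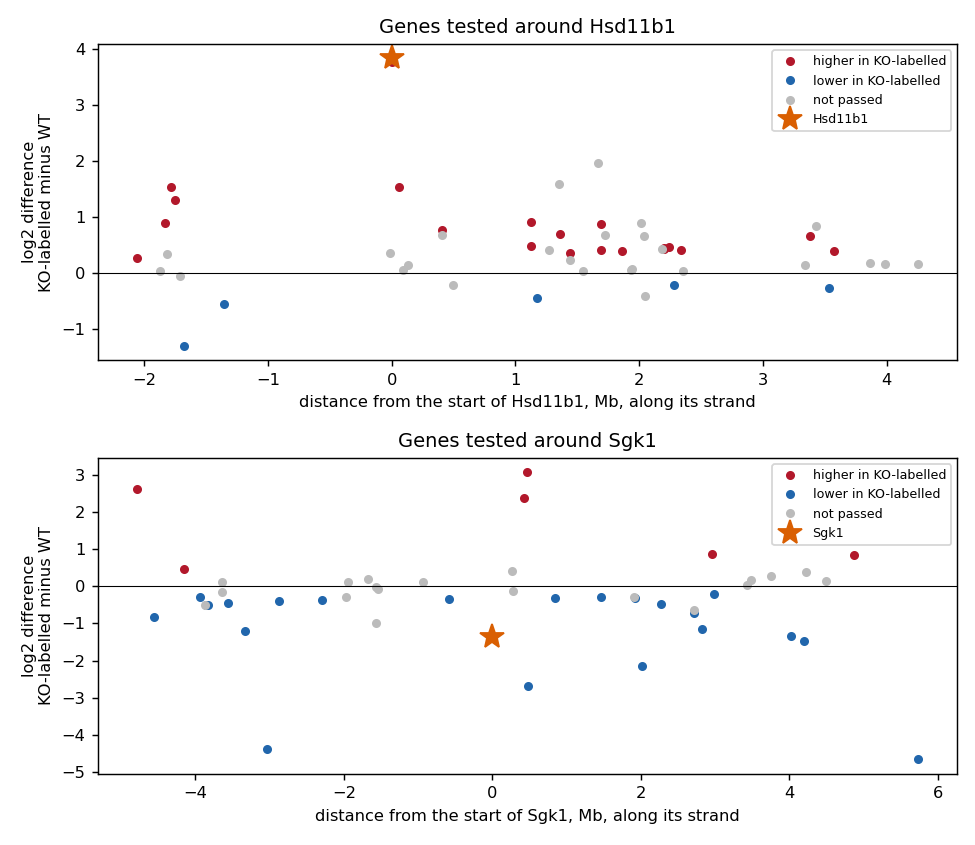
Log2 difference (KO-labelled minus WT) of each gene tested whose span reaches within 5 Mb, against the distance of its start from that of Hsd11b1 (top) or Sgk1 (bottom) in Mb along that gene's strand, with genes called higher in red, called lower in blue and not passed in grey. Hsd11b1 (star) stands at 3.83 with Gm38118 behind it and Lamb3 at 1.53 beside it. Sgk1 (star) stands at -1.37 between neighbours that lie on both sides of 0, of which more were called lower than higher.

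H6pd (ENSMUSG00000028980, chromosome 4, 149979475 to 150009023, minus strand), the hexose-6-phosphate dehydrogenase that feeds NADPH to the reductase, did not pass the test. It measured 32.5, 40.9 and 40.8 CPM in KO-labelled libraries, against 50.3, 43.7 and 42.9 CPM in WT libraries. The groups did not overlap, but KO-labelled library 1 lay well under the other 2 of its group. The log2 difference was -0.26 (95% interval -0.47 to -0.06, SE 0.11, adjusted p = 0.0749 by edgeR). Without a filter on low counts the adjusted p was 0.00665, and over the 12 alternatives it ran from 0.00665 to 0.203. Within each library, the level of Hsd11b1 per kb of exon sequence was 2.59, 2.30 and 2.14 times that of H6pd in the KO-labelled libraries and 0.121, 0.133 and 0.157 times in the WT libraries. The order of the reductase and its NADPH source was therefore opposite in the groups, by a measure that no scaling between libraries touches.

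Hsd11b2 (ENSMUSG00000031891, chromosome 8, 105518755 to 105523988, plus strand), the inactivating dehydrogenase, was close to undetected. It had 6, 1 and 5 counts in the KO-labelled libraries and 1, 4 and 3 counts in the WT libraries, and the groups overlapped. No fold is given at counts this low, and a difference was not detectable at this depth.

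Other genes around the handling of glucose-6-phosphate and NADPH were listed beside H6pd, and not all of them supply NADPH. Of these 11 (Slc37a4, Slc37a1, Slc37a2, G6pc3, G6pdx, Pgls, Pgd, Por, Cyb5r3, Idh1 and Me1), 2 were higher, 4 lower and 5 did not pass. The shares were 18.2% higher, against 17.6% of all genes tested, and 36.4% lower, against 21.3%. G6pc3, a glucose-6-phosphatase of the endoplasmic reticulum, stood at 7.25 ± 0.649 CPM in KO-labelled and 17.3 ± 1.74 CPM in WT libraries, a log2 difference of -1.25 (SE 0.11, adjusted p = 2e-05 by edgeR). Slc37a4, the transporter that brings glucose-6-phosphate into that compartment, fell to 4.47 ± 0.296 CPM, against 6.23 ± 0.790 CPM in WT libraries (log2 difference -0.48, SE 0.14). Its call ended when leaving out KO-labelled library 2 (adjusted p = 0.0633), KO-labelled library 3 (0.0561) or WT library 2 (0.0963). Slc37a2, a related sugar-phosphate exchanger, had a log2 difference of -0.74 (SE 0.22), and its call was lost without KO-labelled library 2 (0.0653), KO-labelled library 3 (0.0849) or WT library 1 (0.0810). Idh1, the cytosolic NADPH-producing isocitrate dehydrogenase, rose to 118 ± 2.37 CPM, against 76.5 ± 5.60 CPM in WT libraries (log2 difference 0.62, SE 0.07). Me1, malic enzyme, differed by 0.17 (SE 0.06), a call that was lost in each of the 6 fits that left out 1 library, with adjusted p-values up to 0.156. The count of lower genes in this list was 2 without KO-labelled library 2, WT library 1 or WT library 2, and 1 without KO-labelled library 3.

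Nr3c1 (ENSMUSG00000024431, chromosome 18, 39410545 to 39519421, minus strand), the glucocorticoid receptor, was modestly higher. It measured 172, 164 and 168 CPM in KO-labelled libraries, against 129, 144 and 145 CPM in WT libraries, without overlap. The log2 difference was 0.27 (95% interval 0.13 to 0.40, SE 0.07, adjusted p = 0.0123 by edgeR). The median of the 414 other genes tested on its chromosome, 18, was 0.11. The 6 others within 1 Mb had a median of 0.23, close to that of Nr3c1 itself, with 3 called higher and 1 lower.

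Nr3c2 (ENSMUSG00000031618, chromosome 8, 76899442 to 77245012, plus strand), the mineralocorticoid receptor, was expressed at a low level and did not pass. It measured 1.90, 2.13 and 3.35 CPM in KO-labelled libraries, against 1.85, 1.37 and 1.52 CPM in WT libraries. The lowest KO-labelled value and the highest WT value nearly touched, and KO-labelled library 3 stood apart. The log2 difference was 0.63 (95% interval 0.14 to 1.12, SE 0.25, adjusted p = 0.0722 by edgeR). Without KO-labelled library 1 the adjusted p was 0.0456, within a range of 0.0456 to 0.292 over the 12 alternatives. Per kb of exon sequence, the level of Nr3c1 was 42.3 to 76.1 times that of Nr3c2 in the KO-labelled libraries and 58.7 to 88.7 times in the WT libraries. These ranges overlapped (exact two-sided permutation p = 0.4), so the balance of the receptors did not separate the groups.

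Of 15 chaperones and immunophilins of the receptor, 2 were higher (Fkbp4 and Ahsa1), 2 lower (Cdc37 and Ppp5c) and 11 did not pass, namely Hsp90aa1, Hsp90ab1, Hspa8, Hspa4, Stip1, Ptges3, Ppid, Bag1, Dnaja1, Dnajb1 and Stub1. These are 13.3% higher and 13.3% lower, against 17.6% and 21.3% of all genes tested. Fkbp4, the immunophilin that helps carry the receptor towards the nucleus, stood at 128 ± 7.57 CPM in KO-labelled and 109 ± 3.19 CPM in WT libraries, a log2 difference of 0.24 (SE 0.07, adjusted p = 0.0183 by edgeR). Leaving out KO-labelled library 2 gave an adjusted p of 0.0909 and leaving out WT library 2 one of 0.102, which ended the call. Ahsa1, an activator of the Hsp90 ATPase, differed by 0.19 (SE 0.07), Cdc37, an Hsp90 cochaperone for kinases, by -0.21 (SE 0.07) and Ppp5c, a phosphatase bound to Hsp90, by -0.22 (SE 0.08). Each of these 3 calls was lost in 5 of the 6 fits that left out 1 library.

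Nuclear receptor coregulators were called at 19.0% higher and 19.0% lower, 4 each of 21 listed, against 17.6% and 21.3% of all genes tested. Ppargc1a, the coactivator PGC-1alpha, stood far from the others at 6.46 ± 0.637 CPM in KO-labelled and 0.273 ± 0.0872 CPM in WT libraries, a log2 difference of 4.56 (SE 0.24, adjusted p = 6.85e-07 by edgeR). Ncoa3, a coactivator of the p160 family, differed by 0.47 (SE 0.07) and Cbx3, a chromatin protein that works with the receptor's coregulators Ehmt1 and Ehmt2, by 0.45 (SE 0.08). Carm1, an arginine methyltransferase, differed by -0.61 (SE 0.08) and Smarca4, an ATPase of chromatin remodelling, by -0.41 (SE 0.10). Ncoa6 differed by -0.27 (SE 0.09), a call that was lost in 5 of the 6 fits that left out 1 library. The count of lower genes was 2 without KO-labelled library 2 or WT library 2.

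Fkbp5 (ENSMUSG00000024222, chromosome 17, 28399094 to 28517527, minus strand) encodes an immunophilin that holds the receptor in a state of low affinity and is itself induced by the receptor. It measured 48.9, 54.3 and 53.4 CPM in KO-labelled libraries, against 29.6, 28.3 and 29.7 CPM in WT libraries. The groups were far apart relative to their spread. The ratio of means was 1.79 and the log2 difference 0.84 (95% interval 0.70 to 0.98, SE 0.07, adjusted p = 1.72e-05 by edgeR). Fkbp5 lies on chromosome 17, where the 782 other genes tested had a median log2 difference of 0.27, and the 40 others within 1 Mb one of 0.26. Relative to that chromosome's median the log2 difference of Fkbp5 was 0.56.

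Sgk1 (ENSMUSG00000019970, chromosome 10, 21882184 to 21999903, plus strand), a serum- and glucocorticoid-induced kinase that acts on ion transport, moved the other way. It measured 63.9, 53.5 and 57.1 CPM in KO-labelled libraries, against 129, 146 and 176 CPM in WT libraries. The groups were widely separated, and the WT values spread more than the KO-labelled ones. The KO-labelled mean was 38.6% of the WT mean, and the log2 difference was -1.37 (95% interval -1.60 to -1.15, SE 0.12, adjusted p = 1.55e-05 by edgeR). The 8 other genes tested within 1 Mb of Sgk1 on chromosome 10 had a median of -0.02 and the 774 others on the chromosome one of -0.08.

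Tsc22d3 (ENSMUSG00000031431, chromosome X, 140539528 to 140600659, minus strand), which encodes the anti-inflammatory leucine zipper protein GILZ, was slightly lower. It measured 21.9, 22.6 and 20.8 CPM in KO-labelled libraries, against 24.6, 26.2 and 26.0 CPM in WT libraries. The groups did not overlap but lay close together. The log2 difference was -0.23 (95% interval -0.37 to -0.10, SE 0.07, adjusted p = 0.0243 by edgeR). Leaving out KO-labelled library 3 (adjusted p = 0.0935), WT library 2 (0.104) or WT library 3 (0.0505) ended the call, as did library size alone as the scaling (0.0578), within a range of 0.0201 to 0.104 over the 12 alternatives. The 11 other genes tested within 1 Mb of Tsc22d3 had a median log2 difference of -0.17, with 4 called lower and 1 higher. The 467 others on chromosome X had a median of 0.06.

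Zbtb16 (ENSMUSG00000066687, chromosome 9, 48654297 to 48836222, minus strand), the gene of the transcription factor PLZF and a strongly glucocorticoid-induced gene in several tissues, was close to undetected. It had 3, 2 and 1 counts in the KO-labelled libraries and 3, 0 and 1 counts in the WT libraries. The groups overlapped, and no fold is given.

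The response genes therefore did not share a direction. Per kb of exon sequence, Fkbp5 stood at 0.397, 0.526 and 0.485 times the level of Sgk1 in KO-labelled libraries and at 0.0872 to 0.118 times in the WT libraries. Against Tsc22d3 it stood at 1.02, 1.10 and 1.17 times in KO-labelled libraries and at 0.552, 0.495 and 0.522 times in the WT libraries. Neither pair of ranges overlapped, and each exact two-sided permutation p was 0.1, the smallest that 3 against 3 libraries allow. Both outcomes were fixed by the values above, in which Fkbp5 lay above the WT range and Sgk1 and Tsc22d3 below it. The ratios were also chosen after these values were seen, so their p-values add nothing to the separate differences. These ratios are taken within a library and do not depend on scaling.

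**Figure D3:**
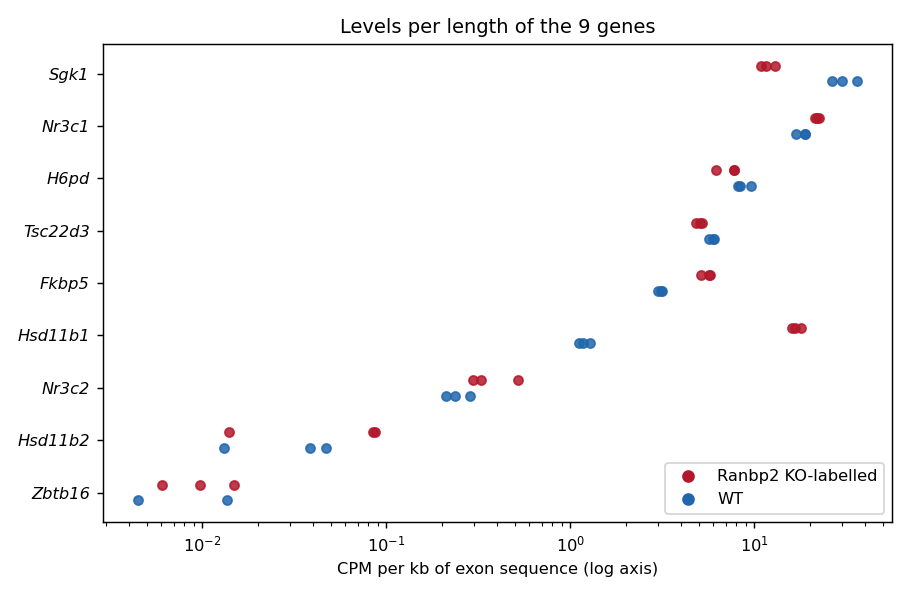
Level of each of the 9 genes per kb of exon sequence (CPM per kb, log axis) in each KO-labelled library (red, upper points) and each WT library (blue, lower points), ordered by the WT mean. Hsd11b1 stands at 16.1 to 17.9 CPM per kb in KO-labelled libraries and at 1.11 to 1.29 CPM per kb in WT libraries, and the WT library with 0 counts of Zbtb16 is not drawn.

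On the per-length scale, the order of levels in the KO-labelled libraries was Nr3c1 (21.9 ± 0.539 CPM per kb), Hsd11b1 (16.9 ± 0.955), Sgk1 (11.9 ± 1.07), H6pd (7.27 ± 0.917), Fkbp5 (5.51 ± 0.306), Tsc22d3 (5.02 ± 0.200) and Nr3c2 (0.380 ± 0.120), with Hsd11b2 and Zbtb16 below 0.1. In the WT libraries it was Sgk1 (30.7 ± 4.84 CPM per kb), Nr3c1 (18.1 ± 1.14), H6pd (8.72 ± 0.781), Tsc22d3 (5.90 ± 0.206), Fkbp5 (3.08 ± 0.0818), Hsd11b1 (1.19 ± 0.0893) and Nr3c2 (0.244 ± 0.0383), again with Hsd11b2 and Zbtb16 last. Within a group, the neighbours whose ranges overlapped were Fkbp5 and Tsc22d3 in the KO-labelled libraries, and Hsd11b2 and Zbtb16 in both. Hsd11b1 thus lay above 81.7% of the genes tested in the KO-labelled libraries and above 30.4% in the WT libraries. The lengths are the union of all annotated exons, so a gene with long alternative ends is placed too low.

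A wider list of genes that glucocorticoids induce in various cells fell more often than it rose. Of 40 listed, 7 rose, 17 fell, 9 did not pass and 7 were too weakly expressed to be tested. Of the tested members 51.5% were called lower, against 21.3% of all genes tested, and 21.2% higher, against 17.6%. Their median log2 difference was -0.28, against 0.01 for all genes tested. Many of these genes also answer to serum, stress or growth factors, and the list was put together with earlier results of these data known.

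Among those that fell, Cebpd, a transcription factor of the CCAAT/enhancer-binding family, stood at 22.2 ± 1.95 CPM in KO-labelled and 67.6 ± 6.18 CPM in WT libraries, a log2 difference of -1.60 (SE 0.09, adjusted p = 1.62e-06 by edgeR). Klf9, a zinc finger gene directly induced by the receptor, measured 23.1, 21.1 and 21.2 CPM in KO-labelled libraries, against 50.4, 49.8 and 53.6 CPM in WT libraries. Its log2 difference was -1.23 (SE 0.07, adjusted p = 1.62e-06 by edgeR). Glul, glutamine synthetase, fell to 10.4 ± 0.286 CPM, against 22.7 ± 0.625 CPM in WT libraries. The KO-labelled and WT values of these 3 genes, named for their small adjusted p, did not overlap. That held for 51.4% of all genes tested, 26.8% with the KO-labelled values below. The remaining 14, given here to account for the list, were Ddit4 (log2 difference -1.54), Edn1 (-1.43), Errfi1 (-1.27), Foxo3 (-1.24), Bcl6 (-0.92), Cebpb (-0.87), Slc19a2 (-0.82), Zfp36 (-0.82), Irs2 (-0.79), Dusp1 (-0.66), Nfkbia (-0.57), Foxo1 (-0.40), Ampd3 (-0.34) and Sesn1 (-0.22). Dusp1 and Nfkbia, through which glucocorticoids restrain MAP kinase and NF-kB signalling, were thus among the genes that fell.

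Among those that rose, Angptl4, a secreted inhibitor of lipoprotein lipase, stood at 15.1 ± 1.32 CPM in KO-labelled and 6.37 ± 0.312 CPM in WT libraries, a log2 difference of 1.25 (SE 0.10, adjusted p = 1.28e-05 by edgeR). The metallothionein gene Mt1 stood at 25.3 ± 1.18 CPM in KO-labelled and 14.6 ± 1.08 CPM in WT libraries. Rgs2, a regulator of G protein signalling, stood at 15.6 ± 0.716 CPM in KO-labelled and 10.1 ± 1.02 CPM in WT libraries. The other 4 were Fam107a (log2 difference 1.88), Mt2 (0.43), Klf13 (0.34) and Per2 (0.34), and Fam107a stayed under 1 CPM in every library. Without KO-labelled library 3 the count of genes that rose was 4.

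The 9 that did not pass included the clock gene Per1, a classical target, at 23.0, 16.5 and 17.5 CPM in KO-labelled and 25.9, 21.0 and 22.2 CPM in WT libraries. Pdk4, a kinase that inhibits pyruvate dehydrogenase, and Anxa1, the anti-inflammatory annexin, were also in this group, with log2 differences of -0.22 (SE 0.11) and 0.00 (SE 0.12). The others were Pik3r1, Fbxo32, Lcn2, Ror1, Gadd45a and Arrdc2. The 7 that were not tested were Klf15, Trim63, Cdkn1c, Saa3, Rasd1, Tat and Pck1, none above 0.326 CPM in any library.

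**Figure D4:**
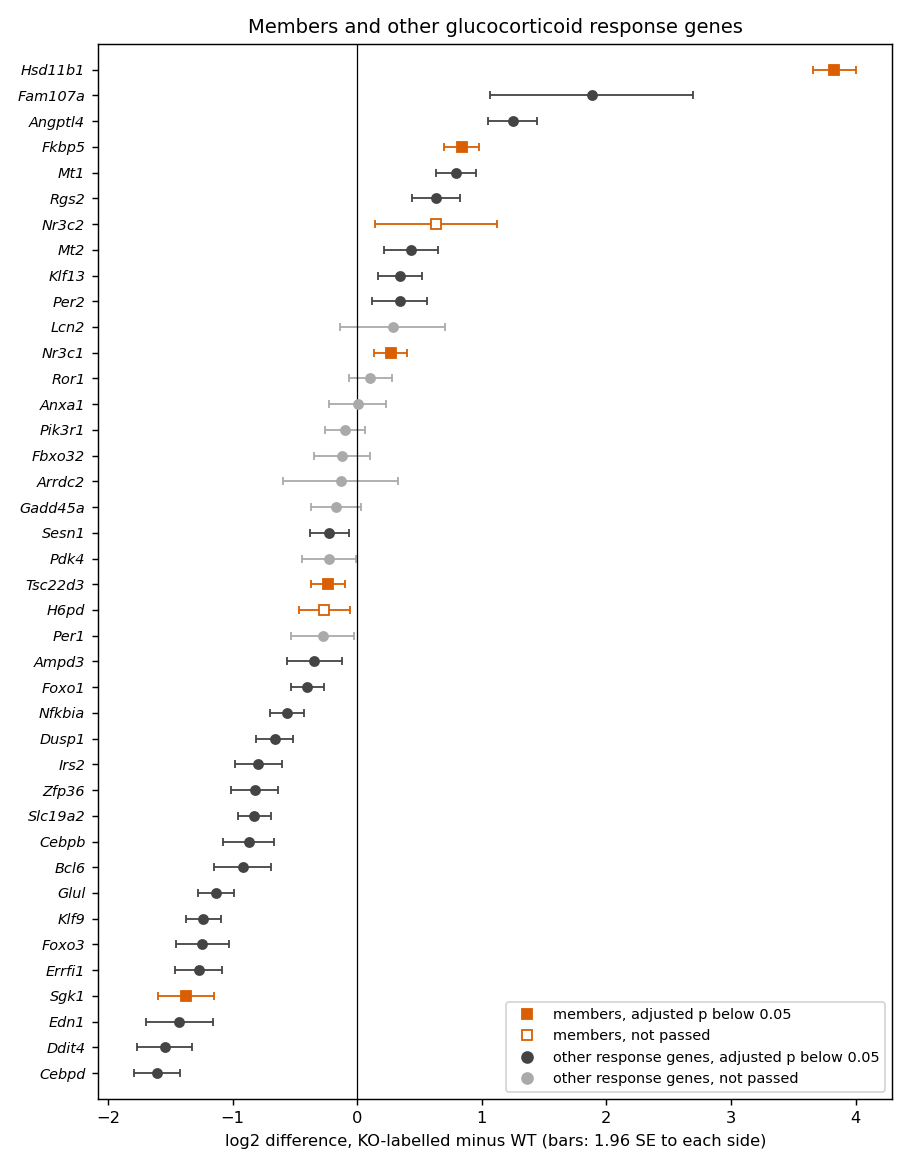
Log2 difference (KO-labelled minus WT, horizontal axis, bars the 95% interval) of the 7 tested members (orange squares, open where not passed) and of 33 other glucocorticoid response genes (circles, dark where the adjusted p was below 0.05 and light where it was not). Hsd11b1 stands alone at 3.83, Fkbp5 lies among the genes that rose, and Sgk1 lies among the lowest, next to Edn1, Ddit4 and Cebpd.

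Of 23 inflammatory genes that glucocorticoids repress, 2 rose, 7 fell, 5 did not pass and 9 were not tested. Of the 14 tested, 14.3% were called higher, against 17.6% of all genes tested, and 50.0% lower, against 21.3%. Ccl7, a monocyte chemokine, stood at 3.03 ± 0.262 CPM in KO-labelled and 9.02 ± 1.22 CPM in WT libraries (log2 difference -1.58, SE 0.14). Csf1 had a log2 difference of -0.77 (SE 0.07) and Cxcl5 one of -2.86 (SE 0.35). The other 4 that fell were Lif, Ptgs2, Il6 and Ccl2. Vcam1, an adhesion molecule, rose by 0.66 (SE 0.07) and the chemokine Cxcl12 by 0.44 (SE 0.08) on the log2 scale.

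Hsd11b1 and several of the response genes are also active in fat and liver, and markers of other cell types were read beside them. Their counts stand against 17.6% higher and 21.3% lower among all genes tested. Of 8 adipocyte markers only 3 were tested (Fabp4, Lpl and Pparg), and each rose. The summed level of the 8 was 88.4 to 95.4 CPM in KO-labelled and 37.0 to 47.2 CPM in WT libraries. Adipoq, Plin1, Cfd and Cidec were below 0.11 CPM in every library and Lep was at 0. Pparg, the highest of these markers, stood at 44.3 ± 2.32 CPM in KO-labelled and 29.1 ± 3.28 CPM in WT libraries. The 7 hepatocyte markers, among them Alb with 3 counts in each group, summed to at most 0.0522 CPM in any library, and Ttr, Serpina1a, Tat, Pck1 and Cyp2e1 were at 0. Of 8 chondrocyte markers 6 were tested, of which 5 rose and 1, Sox9, fell. The highest in level was Col2a1 at 985 ± 58.3 CPM in KO-labelled and 765 ± 102 CPM in WT libraries, with Acan and Matn1 under 0.05 CPM. Col9a1 stood at 29.5 ± 0.391 CPM in KO-labelled and 0.307 ± 0.122 CPM in WT libraries, and Sox6 at 23.4 ± 3.41 CPM in KO-labelled and 0.754 ± 0.204 CPM in WT libraries. The other 2 that rose were Comp (log2 difference 2.64) and Matn3 (2.37). The call of Col2a1, with the smallest of the 5 rises, ended in 3 of the 6 fits that left out 1 library, with adjusted p-values up to 0.0801. The 8 chondrocyte markers summed to 1162 to 1292 CPM in KO-labelled and 881 to 1091 CPM in WT libraries. Of 7 epithelial markers only Cdh1 was tested, and it rose, at 7.46 ± 1.47 CPM in KO-labelled and 2.22 ± 0.327 CPM in WT libraries. The other 6, Epcam, Krt8, Krt18, Krt19, Krt5 and Krt14, averaged below 1 CPM in both groups. Among them Krt8 averaged 0.165 CPM in KO-labelled and 0.0159 CPM in WT libraries, and Krt19 averaged 0 and 0.189 CPM in the same order. Tek was the endothelial marker of highest level, at 21.9 ± 1.88 CPM in KO-labelled and 37.0 ± 2.41 CPM in WT libraries. Of 6 endothelial markers 4 were tested, of which 1, Tek, fell and 1, Vwf, rose. Vwf stood at 6.04 ± 0.886 CPM in KO-labelled libraries, against 0.269 ± 0.153 CPM in WT libraries. The part of the adipocyte, chondrocyte, epithelial and endothelial markers in the values of Hsd11b1 was not tested.

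The genes most like Hsd11b1 across the 6 libraries, by Pearson correlation of log2 CPM among 9374 genes of at least 10 CPM in the higher group, were Zfpm2 (r = 0.9998), Pawr (0.9997) and Epha7 (0.9995). A total of 146 genes had an r above 0.99. With 2 groups far apart, such values take in the difference between the groups, and the points share their libraries and depth. Zfpm2, a cofactor of GATA factors, stood at 56.6 ± 0.592 CPM in KO-labelled and 32.1 ± 0.459 CPM in WT libraries. Pawr stood at 32.5 ± 1.06 CPM in KO-labelled and 6.59 ± 0.260 CPM in WT libraries, and Epha7 at 75.7 ± 1.62 and 25.3 ± 0.605 CPM in the same order.

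Promoter windows were read from RefSeq (GRCm38.p6) for 6 of the 9 genes, and the 250 bases before the annotated start are shown for the member that chose the list and for the response genes that moved furthest in each direction. The receptor binds an inverted repeat of the hexamer AGAACA spaced by 3 bases, and that hexamer reads TGTTCT on the other strand. Both strands were searched for the hexamer and for the looser repeat, GNACA followed after any 3 bases by TGTNC. Matches of both overlap where a repeat is made of full hexamers. Capitals mark the matches and all other bases are in lower case.
Hsd11b1, chr1:193242361-193242610, minus strand: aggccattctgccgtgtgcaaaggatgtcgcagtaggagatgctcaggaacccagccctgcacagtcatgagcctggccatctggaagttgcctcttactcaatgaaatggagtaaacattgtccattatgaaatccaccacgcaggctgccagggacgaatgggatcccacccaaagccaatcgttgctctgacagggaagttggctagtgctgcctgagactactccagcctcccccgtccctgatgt
Fkbp5, chr17:28486150-28486399, minus strand: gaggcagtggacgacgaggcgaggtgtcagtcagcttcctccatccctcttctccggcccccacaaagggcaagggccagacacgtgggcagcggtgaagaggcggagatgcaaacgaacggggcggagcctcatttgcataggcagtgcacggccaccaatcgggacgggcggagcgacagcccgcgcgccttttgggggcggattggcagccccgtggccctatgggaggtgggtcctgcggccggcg
Sgk1, chr10:21993640-21993889, plus strand: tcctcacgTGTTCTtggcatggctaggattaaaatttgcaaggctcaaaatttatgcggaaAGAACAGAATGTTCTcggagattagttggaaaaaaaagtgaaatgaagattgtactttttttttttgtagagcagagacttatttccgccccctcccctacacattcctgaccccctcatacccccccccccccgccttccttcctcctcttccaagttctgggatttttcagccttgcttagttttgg

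The Sgk1 window was picked for its matches from the 6 that RefSeq lists for this gene, and is the 1 of 13 member windows searched that holds the repeat. It has the hexamer 3 times and the repeat once, as GAACAGAATGTTC from 188 to 176 bases before the start. Of all 32851 promoter windows searched over the same length, 0.387% hold the repeat and 16.1% the hexamer. These are shares per window and do not allow for the choice of this one. The windows of Hsd11b1 and Fkbp5 hold neither, which says only that these letters are not in these 250 bases. Both windows lie inside the gene spans given above, so the outermost annotated starts of Hsd11b1 and Fkbp5 were not searched. The hexamer was also found in 1 of 3 Tsc22d3 windows, in the H6pd window and in 2 other Sgk1 windows, and not in that of Nr3c2. Sgk1, the member with the repeat, fell to 58.1 ± 5.26 CPM in KO-labelled libraries, against 151 ± 23.7 CPM in WT libraries, and counts summed over the gene cannot tell its starts apart. A match of letters is a description and does not show that the receptor was bound there.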

How the data were processed

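PolyA RNA of 3 KO-labelled and 3 WT libraries of 10T1/2 cells was analysed. Per the labels' protocols, mRNA libraries were made with a KAPA HyperPrep kit and run on a NextSeq500. The authors deposited expected counts per Ensembl gene, not scaled between libraries, and per the submitters' processing notes they used cutadapt, RSEM and build GRCm38. For versions, aligner and strand setting the sources used here give nothing. RSEM divides reads that match several genes, and 17.9% of values were not whole. Symbols, positions and exon lengths came from GENCODE M21, which matched 55230 of 55471 identifiers.

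Expected counts were rounded and filtered with filterByExpr (minimum count 10, minimum total 15), which left 15454 genes. Libraries were scaled by TMM, and the KO-labelled group was set against WT by the quasi-likelihood test of edgeR 4.0.16 under R 4.3.3, with Benjamini-Hochberg adjustment over all 15454 genes and a threshold of 0.05. Log2 differences are KO-labelled minus WT. CPM use TMM-scaled totals and are mean ± SD of 3 libraries, and 95% intervals are normal intervals from the SE. On simulated counts for these libraries (15454 genes), changes drawn over all tested genes were called in 35 of 67 at 1.5-fold, 46 of 69 at 2-fold and 56 of 64 at 4-fold. A draw limited to genes of at least 1 CPM was made after that recovery at 4-fold was seen to be under 0.9, and gave 40 of 62, 59 of 71 and 65 of 67. False calls were 9.87% of 152 calls in the first and 8.89% of 180 in the second, above the nominal 5%. Far fewer genes were changed in these draws than the 6011 called in the data. The shares recovered and falsely called may therefore differ from those of the real comparison.

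The members and lists were chosen with earlier results of these data known. From each other list, the 3 called genes of smallest adjusted p in each direction and of at least 1 CPM were named, or, where none was called, the gene with the highest CPM. From each marker list it was the marker with the highest CPM. Other genes of the lists were named after their values were seen. DESeq2 1.42.0, other scalings and filters, a replicate block and leaving out each library were the 12 alternatives. No pair of replicate libraries matched within sampling noise: within a sample of the genes, 28.5% to 54.1% differed beyond counting error (binomial test, p below 0.05). Promoter windows were searched for the receptor's hexamer and repeat. A C/EBP motif and a CCAAT box were also searched after the sequences were seen, and are not shown. The ratios between members were chosen after their values were seen, and 4 of them were tested besides the ratio of Hsd11b1 to H6pd. Some items are not reported here.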

Additional observations from a re-analysis of the deposited data

How the results depend on the processing

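Directions of the 7 tested members were the same under all 12 alternatives, and Nr3c1, Fkbp5 and Sgk1 also kept their side of the threshold. The count of members that fell was 1 with library size alone and with the replicate block, and ran from 1 to 2 when 1 library was left out, because Tsc22d3 lost its call. Chaperones called higher numbered 0 without a filter, 4 with DESeq2 and 0 with the replicate block, and ran from 0 to 4 when 1 library was left out; those called lower numbered 1 with library size alone, 1 with a minimum of 1 CPM and 0 with the replicate block, and ran from 0 to 1. Of the genes listed beside H6pd, those called higher numbered 1 without a filter, 1 with the replicate block and 1 in each fit without 1 library. Those called lower ran from 1 to 4 in the fits without 1 library. Without a filter, 4 steroid handling genes were lower and 2 other nuclear receptors higher. When 1 library was left out, other nuclear receptors called higher ran from 1 to 2, response genes that rose from 4 to 7 and coregulators that fell from 2 to 4. The cause of these moves was not tested. Same-numbered libraries of the 2 groups did not deviate together (correlations 0.022, -0.081 and -0.034, and no library correlated best with its own number). Whether they were cultured or prepared together is not described, and these correlations cannot settle it. The replicate block moved the count of called genes to 4994, against 6011 without it. The median log2 difference of all genes ran from 0.002 to 0.074 over the alternatives. Depth limits Hsd11b2 and Zbtb16, with at most 6 counts in a library. Intervals and SE cover the spread between these libraries only.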

Other observations

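Of 19 other nuclear receptors listed, 1 rose, 10 fell, 5 did not pass and 3 were not tested. Of the 16 tested 6.25% were called higher and 62.5% lower, against 17.6% higher and 21.3% lower among all genes tested. Vdr, the vitamin D receptor, stood at 36.6 ± 1.26 CPM in KO-labelled and 103 ± 3.68 CPM in WT libraries, a log2 difference of -1.50 (SE 0.07, adjusted p = 2.66e-07 by edgeR). Esr1, an oestrogen receptor, had 8 counts in the KO-labelled and 333 counts in the WT libraries. Pparg, the adipogenic receptor, was the 1 that rose, with a log2 difference of 0.61 (SE 0.09). In the fits without KO-labelled library 2 or 3, 2 receptors were called higher.

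Of 20 genes of steroid synthesis, clearance and transport, 2 fell, 9 did not pass and 9 were not tested. Of the 11 tested 18.2% were called lower, near the 21.3% of all genes tested. Those that fell encode drug and steroid efflux pumps: Abcb1a had 8 counts in the KO-labelled and 188 counts in the WT libraries, and Abcb1b stood at 39.5 ± 1.22 CPM in KO-labelled and 54.4 ± 4.83 CPM in WT libraries (log2 difference -0.46, SE 0.08). These genes are close neighbours in sequence, and RSEM divides reads that match both, so their split is uncertain. None of the 8 genes listed for the ACTH and CRH axis was tested; Ucn2, the highest, stayed under 0.34 CPM in every library.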
